A study of Mus musculus with 12 samples.

Results

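Disease-associated microglia and phagocyte genes were followed in melanoma growing in the mouse brain. The 9 members, chosen by symbol, were the genes of apolipoprotein E (Apoe), TREM2 (Trem2), DAP12 (Tyrobp), cystatin C (Cst3), cystatin F (Cst7), AXL (Axl), dectin-1 (Clec7a), lipoprotein lipase (Lpl) and osteopontin (Spp1). Each matched 1 of the 47069 genes in the count table, and P2ry12, a gene of resting microglia, was read beside them. RNA came from intracranial tumors of B16 F1, a pigmented mouse melanoma line, in C57BL/6 mice at day 9 after implantation. There were 4 groups of 3 libraries, each described as biological triplicates. The first had both an intracranial and an extracranial tumor and received anti-PD-1 with anti-CTLA-4, antibodies that block 2 inhibitory receptors of T cells and are called therapy here. The second had both tumors and received IgG, a control antibody. The third had the intracranial tumor only and received therapy, and the last had the intracranial tumor only and received IgG. Every mouse thus carried the B16 F1 tumor in the brain, and the series asks whether therapy acts there differently when melanoma is also present elsewhere. The age and sex of the mice, the site of the extracranial tumor and the days of dosing are not given in the labels.

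Microglia are the resident macrophages of the brain. In models of neurodegeneration they can pass into a disease-associated state in which genes of lipid handling, phagocytosis and lysosomal digestion rise while resting-state genes such as P2ry12, a purine receptor, fall. TREM2 binds lipids and lipoproteins, among them apolipoprotein E, and signals through its adaptor DAP12 and the kinase SYK. None of the members belongs to microglia alone. Blood-derived macrophages use most of them, astrocytes make apolipoprotein E and cystatin C, and melanoma cells can make osteopontin and AXL. In RNA from whole tumors, more cells of a type and more RNA per cell cannot be told apart.

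Library totals ran from 18427495 to 22294182 reads. Summed over 9 pigment cell genes, melanoma RNA lay between 21765 and 31371 CPM (reads scaled to library size) in all 12 libraries. Brain content varied far more. Of 12 neuron genes Tubb3, a tubulin, was set apart after values were seen, since it made up 82.7% to 89.6% of their sum in the 4 libraries poorest in the others. The sum of the other 11 was 296 to 1131 CPM under therapy with both tumors, 14.1 to 529 CPM under IgG with both tumors, 10.9 to 18.8 CPM under therapy with the intracranial tumor only and 145 to 441 CPM under IgG with the intracranial tumor only. A library in each IgG group stood apart from its group. Replicate 2 of IgG with both tumors had 14.1 CPM of these 11 genes, while its other replicates had 330 and 529 CPM, and its sample name carries a different suffix that the labels do not explain. Replicate 2 of IgG with the intracranial tumor only had 635 CPM of pan-macrophage genes and 27.4 CPM of T cell genes, while its other replicates had 113 and 126 CPM and 1.98 and 1.30 CPM. The comparisons also give values without these libraries.

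Levels are given as FPKM, reads scaled to gene length and library size, which can be set side by side between genes. By median over the 12 libraries the order was Apoe, Cst3, Spp1, Axl, Tyrobp, Clec7a, Lpl, Trem2, Cst7 and, lowest, P2ry12. The genes differed in how far they ranged. The highest library exceeded the lowest 3.26-fold for Apoe, 3.79-fold for Spp1, 4.43-fold for Cst3 and 7.38-fold for Lpl, against 16.1-fold for Trem2, 25.8-fold for Tyrobp, 34.1-fold for Axl and 68.1-fold for Clec7a. For Cst7 the ratio was 850, with 1 read in each of the 2 lowest libraries. All 9 members, and P2ry12, had their highest group mean under therapy with both tumors and their lowest under therapy with the intracranial tumor only. Both IgG groups lay between, in an order that differed by gene, and their libraries overlapped for all 9 members. Between the last 2 groups in this order, ranges overlapped for 7 of 9 members.

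**Figure D1:**
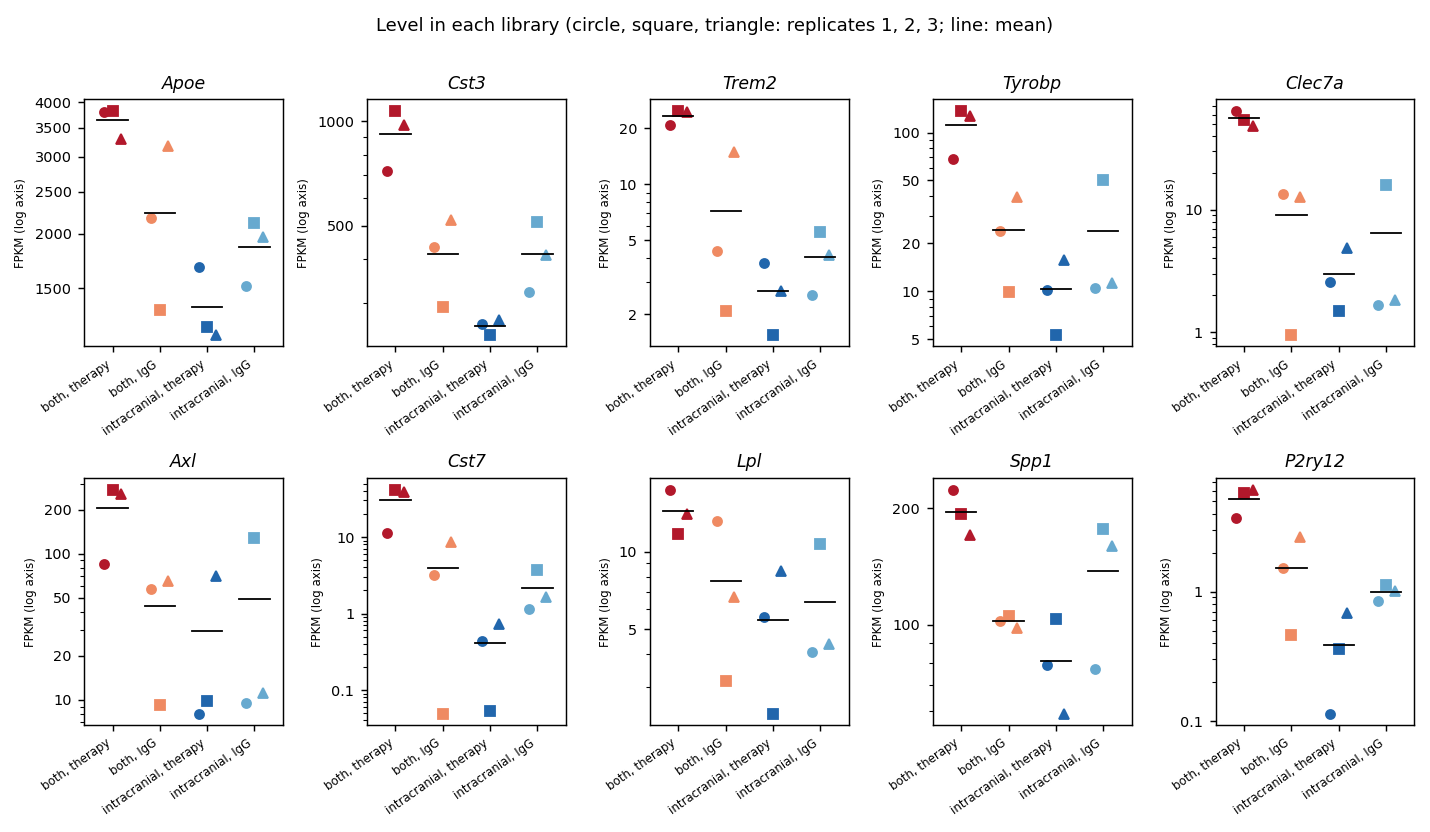
FPKM of the 9 members and P2ry12 in each of the 12 libraries on logarithmic axes, by tumor presence (both tumors, or intracranial for the intracranial tumor only) and antibody, with replicates 1, 2 and 3 as circle, square and triangle and the group mean as a line. For every gene the libraries of therapy with both tumors include the highest value, and replicate 2 of IgG with both tumors (orange square) lies far below its own replicates for Clec7a, at 0.95 FPKM against 13.5 and 12.6 FPKM.

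Therapy against IgG was compared first in mice with both tumors. The fitted log2 fold change was above 0 for all 9 members, from 0.70 for Apoe to 2.96 for Cst7, and 1 of 9, Cst3, passed the adjusted threshold of 0.05 in edgeR's quasi-likelihood test over 15925 genes. Among all genes 5.39% were called, and 1.24% were called higher. In FPKM, 8 of 9 members had all 3 therapy libraries above all 3 IgG libraries, Lpl being the exception, while 18.7% of all genes did. The Cst3 call was marginal, with an adjusted p of 0.0498, and the 858 genes called in this comparison had a smallest adjusted p of the same 0.0498. It was lost with another library scaling, without the filter on low counts, in a fit of these groups alone, and without any 1 of 9 libraries: replicates 2 and 3 of therapy with both tumors, replicates 1 and 2 of IgG with both tumors, all 3 of therapy with the intracranial tumor only, and replicates 1 and 3 of IgG with the intracranial tumor only. DESeq2 called 6 of 9 members higher (Apoe, Trem2, Tyrobp, Cst3, Clec7a and Spp1) and gave no adjusted p for Axl. It called 3103 of 15823 genes in either direction, more than edgeR did. Without replicate 2 of IgG with both tumors the log2 fold change was 0.46 for Apoe, 0.54 for Lpl, 0.97 for Cst3 and for Spp1, 1.30 for Trem2, 1.78 for Axl, 1.84 for Tyrobp, 2.10 for Clec7a and 2.38 for Cst7, and none passed in edgeR.

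The same antibodies were then compared with IgG in intracranial-only mice. All 9 members had a fitted log2 fold change below 0, from -2.32 for Cst7 to -0.18 for Lpl, and 0 of 9 passed edgeR's test, as did 0% of all genes. At an unadjusted p below 0.05, 2151 of the 15925 genes and 2 members, Cst3 and Spp1, were past the line. DESeq2 and limma also called 0 of 9, DESeq2 with 1025 genes called in all. Cst3 and Cst7 had all 3 therapy libraries below all 3 IgG libraries, which 16.2% of all genes did. For Axl, Clec7a and Lpl the sign of the change turned when replicate 2 of the IgG group was left out, to 1.55, 0.82 and 0.41.

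Whether the therapy effect differed with and without the extracranial tumor was tested by the interaction, the therapy effect with both tumors minus that with the intracranial tumor only. It was above 0 for all 9 members and passed for 5 in edgeR's test: Apoe, Tyrobp, Cst3, Cst7 and Spp1. Among all genes 22.0% passed, 12.1% with a higher value. The largest member value was 5.28 ± 1.64 (log2, SE) for Cst7 and the smallest of the 5 was 1.11 ± 0.36 for Apoe. The count of 5 fell to 3 (Cst3, Cst7 and Spp1) without replicate 2 of IgG with both tumors, where Apoe was at 0.87 (adjusted p = 0.0579) and Tyrobp at 2.99 (adjusted p = 0.058). It was 0 without any 1 of 8 other libraries: replicates 2 and 3 of therapy with both tumors, replicate 1 of IgG with both tumors, all 3 of therapy with the intracranial tumor only, and replicates 2 and 3 of IgG with the intracranial tumor only.

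The most members passed between tumor settings under therapy. With both tumors against the intracranial tumor only, 7 of 9 were higher in edgeR's test, all but Axl and Lpl, and all 9 had 3 libraries above the other 3. Of all genes, 45.4% were called and 24.4% were called higher, and 35.1% had all 3 libraries above the other 3. This comparison shares its 3 libraries of therapy with both tumors with the first one. The count was 7 or 8 of 9 when any 1 library was left out. Under IgG, both tumors against the intracranial tumor only gave 0 of 9 in edgeR's test and 0% of all genes, with 188 genes and no member at an unadjusted p below 0.05, and 0 of 9 in DESeq2 and limma. All 9 members overlapped between these groups, where 4.70% of all genes did not.

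**Figure D2:**
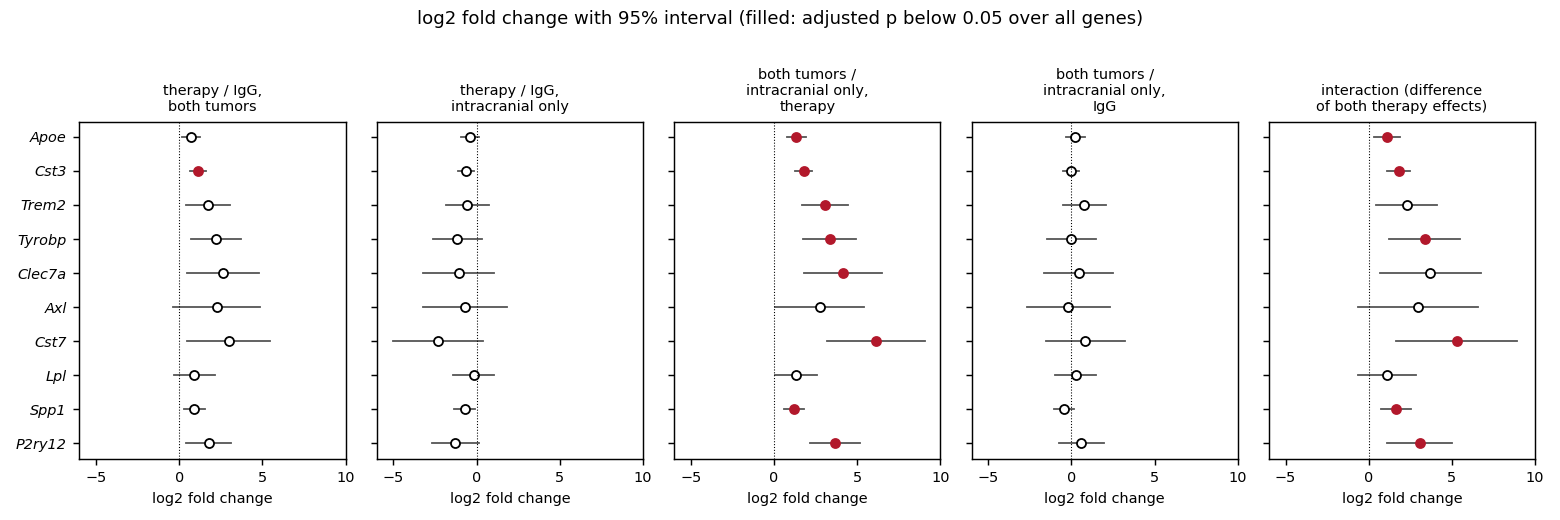
Log2 fold changes of the 9 members and P2ry12 in the 5 comparisons with 95% intervals, filled where edgeR's adjusted p over all genes is below 0.05. Under therapy with both tumors against the intracranial tumor only, 7 members and P2ry12 are filled, in the interaction 5 members and P2ry12, for therapy with both tumors Cst3 alone, and in the other panels none.

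Markers of other cells moved with the members. For both tumors against the intracranial tumor only under therapy, edgeR called higher 12 of 12 neuron genes, 9 of 10 astrocyte genes, 10 of 11 oligodendrocyte genes, 12 of 12 homeostatic microglia genes, 9 of 11 pan-macrophage genes, 8 of 9 T cell genes and 0 of 9 pigment cell genes. In the interaction the counts were 12 of 12 for neuron genes, 5 of 10 for astrocyte genes, 9 of 11 for oligodendrocyte genes, 9 of 12 for homeostatic microglia genes, 3 of 11 for pan-macrophage genes and 0 of 9 for T cell and for pigment cell genes. With the mean log2 CPM of the neuron genes as a covariate, 0 of 9 members and 0 of all 15925 genes passed in any comparison, and likewise with that of the homeostatic microglia genes. Most log2 fold changes also shrank with the neuron covariate, by unequal amounts. Between tumor settings under therapy Apoe was at 0.42 with the covariate against 1.35 without it, Trem2 at 0.91 against 3.06, Cst7 at 0.62 against 6.12, Clec7a at 2.42 against 4.15, Cst3 at 1.08 against 1.78 and Tyrobp at 2.10 against 3.35, while Spp1 was at 1.55 against 1.21. In the interaction Apoe was at 0.07 with the covariate against 1.11 without it, Trem2 at 0.07 against 2.29 and Cst7 at 0.15 against 5.28, while Cst3 was at 1.01 against 1.79, Tyrobp at 2.10 against 3.36 and Spp1 at 2.04 against 1.64. For therapy with both tumors Apoe was at 0.38 against 0.70 and Cst7 at 1.70 against 2.96. Brain or microglia content and group cannot be told apart in these fits, and their part in the members' values was not tested otherwise.

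**Figure D3:**
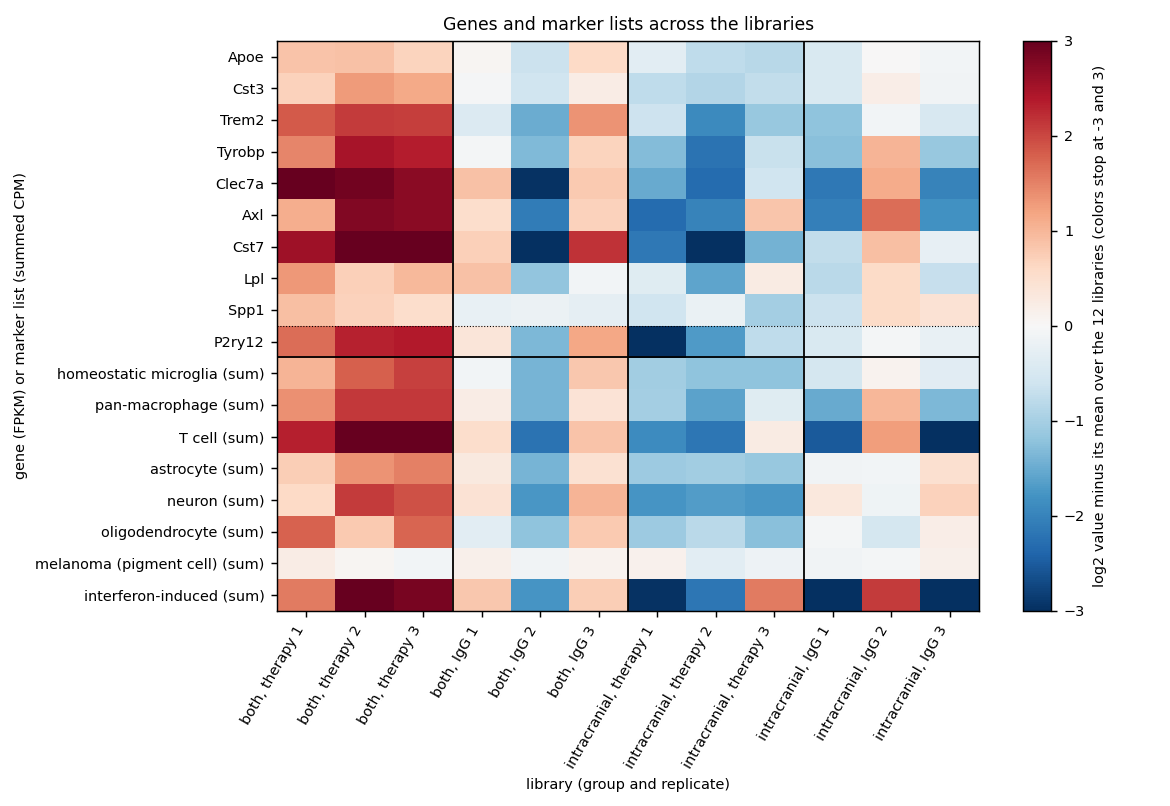
Log2 FPKM of each gene and log2 summed CPM of each marker list in the 12 libraries, minus the mean over libraries, with colors that stop at -3 and 3. Members, homeostatic microglia, macrophage, T cell and brain cell markers are mostly high together in the 3 libraries of therapy with both tumors. Single libraries there do not exceed all others. The neuron sum of replicate 1 (536 CPM) is below replicate 3 of both IgG groups (707 and 571 CPM). Its Axl (85.1 FPKM) is below replicate 2 of IgG with the intracranial tumor only (127 FPKM). The pigment cell sum stays near its mean, and Axl follows the interferon-induced sum in the intracranial-only libraries. The neuron sum includes Tubb3, which makes up most of it in the libraries poorest in the other neuron genes.

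Promoters are shown for Trem2, Clec7a, Axl and Spp1, a receptor of the lipid-sensing pair, a pattern receptor, an engulfment receptor and a secreted ligand. Factors of the ETS family such as PU.1 bind purine-rich DNA in macrophage promoters. Whether they act on these genes here was not tested. Windows of 300 bases, from 250 before to 50 after an annotated start, came from RefSeq on GRCm38.p6 and covered 7 of 9 members, not Tyrobp and Lpl. Those shown are chr17:48346151-48346450 on the plus strand, chr6:129472730-129473029 on the minus strand, chr7:25788684-25788983 on the minus strand and chr5:104434861-104435160 on the plus strand, each written along its gene. Capitals mark GAGGAA or its reverse complement TTCCTC and, in Spp1, the longer GAGGAAGT.
Trem2: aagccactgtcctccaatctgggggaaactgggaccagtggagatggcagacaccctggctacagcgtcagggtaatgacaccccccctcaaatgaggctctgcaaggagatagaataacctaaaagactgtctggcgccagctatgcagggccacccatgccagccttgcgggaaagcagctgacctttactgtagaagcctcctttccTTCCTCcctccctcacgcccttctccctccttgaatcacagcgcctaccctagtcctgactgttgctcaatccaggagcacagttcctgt
Clec7a: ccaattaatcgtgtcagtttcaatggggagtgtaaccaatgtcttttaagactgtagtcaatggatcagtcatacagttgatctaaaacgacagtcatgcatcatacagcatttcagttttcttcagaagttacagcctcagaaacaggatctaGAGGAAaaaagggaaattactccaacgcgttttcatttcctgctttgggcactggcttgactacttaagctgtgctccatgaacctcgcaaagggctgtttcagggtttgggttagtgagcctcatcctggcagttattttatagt
Axl: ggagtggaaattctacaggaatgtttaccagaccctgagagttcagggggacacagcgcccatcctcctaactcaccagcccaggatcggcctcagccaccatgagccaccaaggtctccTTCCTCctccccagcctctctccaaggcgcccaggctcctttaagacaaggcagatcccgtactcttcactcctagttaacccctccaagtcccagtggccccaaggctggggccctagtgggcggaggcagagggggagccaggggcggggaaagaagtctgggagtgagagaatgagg
Spp1: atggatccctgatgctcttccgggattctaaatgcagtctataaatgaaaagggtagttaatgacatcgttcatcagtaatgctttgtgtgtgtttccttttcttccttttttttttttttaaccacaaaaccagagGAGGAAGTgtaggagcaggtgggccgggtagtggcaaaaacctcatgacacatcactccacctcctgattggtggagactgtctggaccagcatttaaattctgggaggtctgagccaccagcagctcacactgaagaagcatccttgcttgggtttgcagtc
The match starts at position -40 from the annotated start in Trem2, -96 in Clec7a, -130 in Axl and -113 in Spp1. GAGGAA or TTCCTC was counted on both strands. A match was found in 8 of the 11 windows of the 7 members and in 28.3% of all 32851 windows. The 2 windows of Clec7a overlap, as do 2 of those of Apoe. By gene, 6 of 7 had a match, Apoe and Cst3 being the others and Cst7, not shown, having none. No share by gene was computed over all promoters. A gene with several windows, such as Apoe, Clec7a or Spp1, has more chances of a match, so the count by gene cannot be set against 28.3%. GAGGAAGT or its reverse complement ACTTCCTC was found in 1 of the 11 windows, that of Spp1, and in 3.20% of all windows; it contains the shorter motif. CACGTG, the E-box core bound by the lysosomal factor TFEB among others, was in no member, in P2ry12 at position -228 and in 7.15% of all windows. A match is a run of letters and says nothing about binding.

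Apoe (chr7:19696109-19699188, minus strand, GRCm38) encodes the lipid carrier that TREM2 can bind. It was the most abundant member, with 3795, 3826 and 3289 FPKM under therapy with both tumors and 2180, 1340 and 3169 FPKM under IgG with both tumors. Tumors of the intracranial-only groups had 1680, 1224 and 1175 FPKM under therapy and 1521, 2113 and 1971 FPKM under IgG. The lowest of the 3 therapy libraries with both tumors thus lay just above the highest IgG one, and the intracranial-only groups overlapped. In edgeR the log2 fold change of therapy was 0.70 ± 0.25 (SE) with both tumors, adjusted p = 0.0918, and -0.41 ± 0.25 with the intracranial tumor only, adjusted p = 0.53. Under therapy it was 1.35 ± 0.25 for both tumors against the intracranial tumor only, adjusted p = 0.00457 in edgeR. Apoe was at least 1175 FPKM in every library, those poorest in brain and microglia markers included, and whether melanoma cells supplied it was not tested, since no library of cultured B16 F1 was used here.

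Lpl (chr8:68880491-68907448, plus strand) encodes the lipase that splits triglycerides of lipoproteins. Its level was modest, with 17.4, 11.7 and 14.0 FPKM under therapy with both tumors and 13.2, 3.15 and 6.68 FPKM under IgG with both tumors. Intracranial-only tumors had 5.57, 2.36 and 8.42 FPKM under therapy and 4.08, 10.7 and 4.39 FPKM under IgG. It was the only member whose therapy and IgG libraries overlapped with both tumors, with replicate 1 of IgG above replicate 2 of therapy. No comparison of Lpl passed in edgeR. The closest, both tumors against the intracranial tumor only under therapy, gave 1.33 ± 0.57 (log2, SE) with an adjusted p of 0.0763, which became 0.0462 without replicate 2 of IgG with both tumors and 0.0922 without replicate 3 of that group. Over all alternatives the adjusted p ran from 0.0223 to 0.895, with 6 of 20 past the threshold.

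Of 15 genes of apolipoprotein E and cholesterol handling, 2 were higher and 0 lower under therapy with both tumors in edgeR's test, with a median log2 fold change of 0.28 beside 0.02 over all genes. These were Abcg1, a cholesterol exporter, at 1.90 ± 0.47 (log2, SE), and Lrp1, a receptor for apolipoprotein E, at 1.20 ± 0.30, both with an adjusted p of 0.0498. In the comparison of tumor settings under therapy 7 were higher and 3 lower, and in the interaction 4 were higher and 1 lower. Cd36, a fatty acid and lipoprotein receptor among 9 tested partners of the lipase, had 10.4, 10.9 and 12.4 FPKM under therapy with both tumors against 2.53, 2.01 and 1.90 FPKM under IgG with both tumors, 2.37 ± 0.49 on the log2 scale (adjusted p = 0.0498). With Lrp1 it made 2 of 9 partners higher in that comparison, where the list's median was -0.06. Of the 9, 3 were higher and 1 lower between tumor settings under therapy, and 3 were higher in the interaction. Over all genes 24.4% and 12.1% were called higher in these 2 comparisons. In neither comparison without called genes did any gene of these or the following lists pass. The list calls for therapy with both tumors share the limits of the Cst3 call. In edgeR no gene passed there with another library scaling, without the filter or in a fit of these groups alone. None passed either without any of the libraries named above whose removal lost Cst3. In the interaction no gene passed without any of the libraries named above whose removal left no member called.

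Trem2 (chr17:48346401-48354147, plus strand), the lipid receptor, had 20.8, 24.9 and 24.6 FPKM under therapy with both tumors and 4.40, 2.08 and 14.98 FPKM under IgG with both tumors. In mice with the intracranial tumor only it had 3.80, 1.55 and 2.67 FPKM under therapy and 2.54, 5.54 and 4.16 FPKM under IgG. Every therapy library with both tumors was above every other library, and replicate 3 of IgG with both tumors was the nearest. Therapy with both tumors gave 1.73 ± 0.59 (log2, SE; edgeR adjusted p = 0.0824), 2.82 with an adjusted p of 0.034 without that replicate, and 1.30 with an adjusted p of 0.191 without replicate 2 of the same group. The change between tumor settings under therapy was 3.06 ± 0.62 (edgeR adjusted p = 0.00491).

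Tyrobp (chr7:30413760-30417585, plus strand), the adaptor of TREM2 and of other myeloid receptors, was more abundant than its partner in every library. Its level was 68.3, 137 and 128 FPKM under therapy with both tumors and 23.9, 9.87 and 39.2 FPKM under IgG with both tumors. Intracranial-only tumors had 10.2, 5.32 and 15.7 FPKM under therapy and 10.4, 50.6 and 11.4 FPKM under IgG. Replicate 2 of that IgG group was the highest library outside therapy with both tumors. The ratio of Tyrobp to Trem2 FPKM lay between 2.62 and 5.90 in 11 libraries and was 9.13 in that one. For Tyrobp the interaction was 3.36 ± 0.96 (log2, SE; edgeR adjusted p = 0.0367), 2.22 with an adjusted p of 0.0764 without that library, and 2.99 with an adjusted p of 0.058 without replicate 2 of IgG with both tumors.

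Of 12 genes that carry or cut the TREM2 and DAP12 signal, 1 was higher under therapy with both tumors, 9 between tumor settings under therapy and 3 in the interaction, with none lower. The median log2 fold change was 1.27, 2.03 and 2.16 in these comparisons, beside 0.02, 0.03 and 0.04 over all genes. Syk, the kinase that DAP12 recruits, passed in all 3 in the main fit, with the limits given above for list calls. It had 7.25, 8.75 and 10.5 FPKM under therapy with both tumors and 4.20, 2.47 and 4.46 FPKM under IgG with both tumors, a log2 fold change of 1.25 ± 0.27 (edgeR adjusted p = 0.0498). Lat2, an adaptor downstream, was at 2.16 ± 0.62 without passing (adjusted p = 0.0568). Spi1, which encodes PU.1, followed a like order in level, with 26.8, 56.5 and 51.7 FPKM under therapy with both tumors, 14.5, 4.96 and 14.7 FPKM under IgG with both tumors, 3.86, 4.98 and 9.64 FPKM under therapy with the intracranial tumor only and 4.23, 29.4 and 4.59 FPKM under IgG with the intracranial tumor only.

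Clec7a (chr6:129461591-129472779, minus strand) encodes dectin-1, a receptor for fungal glucans that also signals through SYK and is a marker of disease-associated microglia. GENCODE lists it as a polymorphic pseudogene. It had 64.7, 54.6 and 48.4 FPKM under therapy with both tumors and 13.5, 0.95 and 12.6 FPKM under IgG with both tumors. Intracranial-only values were 2.56, 1.495 and 4.89 FPKM under therapy and 1.65, 16.1 and 1.84 FPKM under IgG. The therapy libraries with both tumors were tight and all at least 3 times the highest other library. The spread within the other groups was wide, however, and therapy with both tumors gave 2.63 ± 0.98 (log2, SE; edgeR adjusted p = 0.0994). Both tumors against the intracranial tumor only under therapy gave 4.15 ± 1.06 (adjusted p = 0.0105). Of 9 genes of dectin-1 signaling, 1 (Syk) was higher under therapy with both tumors, 7 were higher between tumor settings under therapy and 1 (Syk) in the interaction, with medians of 1.25, 1.43 and 1.43. Card9, an adaptor of dectin-1 and of related receptors, was at 1.39 ± 0.45 for therapy with both tumors (edgeR adjusted p = 0.0715) and Nfatc1 at 1.34 ± 0.37 (adjusted p = 0.0543).

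Axl (chr7:25757273-25788705, minus strand) encodes a receptor kinase by which phagocytes engulf dying cells. It had 85.1, 275 and 258 FPKM under therapy with both tumors and 57.0, 9.23 and 64.5 FPKM under IgG with both tumors. Intracranial-only tumors had 8.05, 9.85 and 70.6 FPKM under therapy and 9.52, 127 and 11.2 FPKM under IgG. In each intracranial-only group 1 library was thus several times the others, and no comparison of Axl passed in edgeR. Therapy with both tumors gave 2.26 ± 1.18 (log2, SE; adjusted p = 0.198) and both tumors against the intracranial tumor only under therapy 2.74 ± 1.20 (adjusted p = 0.0838). The latter p became 0.0369 without replicate 2 of IgG with the intracranial tumor only and 0.0666 without replicate 2 of IgG with both tumors. It ran from 0.0169 to 0.932 over the alternatives other than DESeq2, which gave no adjusted p for Axl. The libraries with high Axl were those high in interferon-induced genes. The summed level of 5 such genes, a list chosen after values were seen (Irf1, Irf7, Gbp2, Cxcl9, Cxcl10), was 878, 3447 and 2177 CPM under therapy with both tumors, 523, 88.5 and 499.8 CPM under IgG with both tumors, 38.4, 66.5 and 885 CPM under therapy with the intracranial tumor only and 35.4, 1281 and 34.2 CPM under IgG with the intracranial tumor only. None of the 5 passed in edgeR in any comparison, and their part in the Axl values was not tested.

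Gas6, a ligand of AXL, had 5.22, 7.29 and 11.6 FPKM under therapy with both tumors and 2.54, 2.29 and 1.78 FPKM under therapy with the intracranial tumor only, 1.80 ± 0.31 on the log2 scale (edgeR adjusted p = 0.00455). Mertk, the sister receptor, was at 7.004, 8.11 and 9.47 FPKM and at 1.95, 2.61 and 2.56 FPKM in the same 2 groups, 1.72 ± 0.34 (adjusted p = 0.00465). Of the 7 genes in this list, Axl included, 2 were higher under therapy with both tumors (Pros1, the other ligand, at 0.92 ± 0.23, and Socs3, an inhibitor of cytokine signaling, at 1.72 ± 0.43), 4 between tumor settings under therapy and 2 (Gas6 and Socs3) in the interaction. The list medians were 1.15, 1.72 and 1.74, beside 0.02, 0.03 and 0.04 over all genes.

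Cst3 (chr2:148871722-148875692, minus strand) encodes cystatin C, a secreted inhibitor of lysosomal cysteine proteases. It had 718, 1072 and 974 FPKM under therapy with both tumors and 435, 291 and 519 FPKM under IgG with both tumors. Intracranial-only tumors had 260, 242 and 266 FPKM under therapy and 322, 511 and 412 FPKM under IgG. Its 3 therapy libraries lay above all IgG libraries with both tumors and below all IgG libraries with the intracranial tumor only. Therapy with both tumors gave 1.14 ± 0.22 (log2, SE; edgeR adjusted p = 0.0498) and therapy with the intracranial tumor only -0.65 ± 0.22 (adjusted p = 0.195), with an interaction of 1.79 ± 0.31 (adjusted p = 0.0321). The interaction of Cst3 was 1.61 with an adjusted p of 0.0104 without replicate 2 of IgG with both tumors, and 1.62 with an adjusted p of 0.0526 without replicate 2 of IgG with the intracranial tumor only.

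Cst7 (chr2:150570415-150578944, plus strand) encodes cystatin F, an inhibitor that acts inside lysosomes of immune cells. Its level was far lower, with 11.3, 41.8 and 38.3 FPKM under therapy with both tumors and 3.20, 0.05 and 8.71 FPKM under IgG with both tumors. With the intracranial tumor only it had 0.44, 0.05 and 0.73 FPKM under therapy and 1.16, 3.65 and 1.65 FPKM under IgG. In reads these were 235, 814 and 822 under therapy with both tumors, 65, 1 and 166 under IgG with both tumors, 8, 1 and 16 under therapy with the intracranial tumor only and 22, 69 and 30 under IgG with the intracranial tumor only. The fold changes are therefore large and imprecise. Both tumors against the intracranial tumor only under therapy gave 6.12 ± 1.34 (log2, SE; edgeR adjusted p = 0.00585), the largest of any member there, and the interaction was 5.28 ± 1.64 (adjusted p = 0.0448). Therapy with both tumors gave 2.96 ± 1.12 (adjusted p = 0.103). T cells and natural killer cells also make cystatin F, and T cell markers too were highest under therapy with both tumors. Their summed level was 57.6 to 117 CPM under therapy with both tumors, 2.47 to 20.7 CPM under IgG with both tumors, 2.53 to 13.5 CPM under therapy with the intracranial tumor only and 1.30 to 27.4 CPM under IgG with the intracranial tumor only, with Cd3e at 0 reads in 2 libraries of the last group. With the intracranial tumor only, T cell sums overlapped between therapy and IgG, while every Cst7 therapy value lay below the IgG ones. The sum of cytotoxic and natural killer cell genes was 44.5 to 176 CPM under therapy with both tumors and 1.94 to 26.7 CPM under IgG with both tumors. With the intracranial tumor only it was 2.1 to 26.5 CPM under therapy and 0.98 to 65.8 CPM under IgG. The part of these cells in the Cst7 values was not tested.

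Of 8 tested proteases that cystatins can block, 3 were higher under therapy with both tumors, 6 between tumor settings under therapy and 4 in the interaction, with none lower and medians of 1.30, 1.44 and 1.57. Ctsb, cathepsin B, had 412, 576 and 540 FPKM under therapy with both tumors and 245, 169 and 275 FPKM under IgG with both tumors, 1.14 ± 0.24 on the log2 scale (edgeR adjusted p = 0.0498). Lgmn, legumain, was at 1.41 ± 0.30 and Ctsl, cathepsin L, at 0.76 ± 0.19 with the same adjusted p.

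Spp1 (chr5:104435118-104441050, plus strand) encodes osteopontin, a secreted protein that binds integrins and CD44. It had 224, 194 and 171 FPKM under therapy with both tumors and 102, 105 and 98.5 FPKM under IgG with both tumors. With the intracranial tumor only it had 78.7, 104 and 59.0 FPKM under therapy and 76.9, 177 and 160 FPKM under IgG. It was the one member for which replicate 2 of IgG with both tumors did not fall below its group mates. Therapy with both tumors gave 0.92 ± 0.28 (log2, SE; edgeR adjusted p = 0.0645), therapy with the intracranial tumor only -0.72 ± 0.28 (adjusted p = 0.274) and the interaction 1.64 ± 0.40 (adjusted p = 0.0321). An unnamed gene model, Gm42793, shares 309 exon bases with Spp1 on the same strand and held 34 reads in all libraries.

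Of 8 tested receptor subunits for osteopontin, 2 were higher under therapy with both tumors, Itgb5 at 1.63 ± 0.33 and Itgb3 at 1.06 ± 0.24 (log2, SE; edgeR adjusted p = 0.0498 for each), both partners of the alpha-v integrin chain. Under therapy, with both tumors against the intracranial tumor only, both were higher while Cd44, at -0.44 ± 0.11 (adjusted p = 0.0102), and Itga4, at -0.78 ± 0.23 (adjusted p = 0.0209), were lower. That is 2 of 8 in each direction, near the split over all genes, where 3886 of 15925 were higher and 3345 lower. Cd44 was abundant throughout, with 228, 191 and 186 FPKM under therapy with both tumors and 258, 277 and 246 FPKM under therapy with the intracranial tumor only. The medians of the list were -0.07 and -0.26.

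Other genes of the disease-associated state were counted from a list of 24, of which 23 were tested and Lilrb4a did not match. Under therapy with both tumors 4 of 23 were higher in edgeR (Ctsb, Cd68, Ctsd and Ctsl, all lysosomal), with a median log2 fold change of 1.33. Under therapy, 14 of 23 were higher with both tumors than with the intracranial tumor only, with a median of 1.43, and in the interaction 7 of 23, with none lower in any of these. Cd68 had 58.2, 78.0 and 85.0 FPKM under therapy with both tumors and 21.2, 12.5 and 30.5 FPKM under IgG with both tumors, 1.78 ± 0.40 (adjusted p = 0.0498). Igf1, a growth factor of the state, had 10.6, 3.73 and 4.98 FPKM under therapy with both tumors and 1.57, 1.07 and 0.64 FPKM under therapy with the intracranial tumor only, 2.48 ± 0.48 (adjusted p = 0.00464). The list named for the microglial state also holds genes that any macrophage uses, and the pan-macrophage sum was 822 to 1404 CPM under therapy with both tumors, 122 to 423 CPM under IgG with both tumors, 105 to 248 CPM under therapy with the intracranial tumor only and 113 to 635 CPM under IgG with the intracranial tumor only.

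P2ry12 (chr3:59216272-59262871, minus strand), which falls when microglia enter the disease-associated state in other models, was highest in the same group as the members. It had 3.73, 5.77 and 6.13 FPKM under therapy with both tumors and 1.51, 0.46 and 2.62 FPKM under IgG with both tumors. With the intracranial tumor only it had 0.11, 0.36 and 0.69 FPKM under therapy and 0.85, 1.13 and 1.00 FPKM under IgG. Therapy libraries lay above all IgG libraries with both tumors and below all of them with the intracranial tumor only. The change between tumor settings under therapy was 3.66 ± 0.67 (log2, SE; edgeR adjusted p = 0.00455) and the interaction was 3.07 ± 0.88 (adjusted p = 0.0376). Therapy with both tumors gave 1.78 ± 0.61 (adjusted p = 0.0842). P2ry12 shares 9 exon bases with Med12l on the opposite strand, and reads there cannot be told apart unless counting used strand. Of the 11 other homeostatic microglia genes 2 were higher (among them Olfml3 at 1.96 ± 0.39) under therapy with both tumors, 11 between tumor settings under therapy and 8 in the interaction. The summed level of all 12, P2ry12 included, was 253 to 516 CPM under therapy with both tumors, 47.3 to 217 CPM under IgG with both tumors, 53.6 to 60.2 CPM under therapy with the intracranial tumor only and 86.2 to 133 CPM under IgG with the intracranial tumor only. Of these genes Crybb1 had 0 reads in 2 libraries of therapy with the intracranial tumor only, and Gpr34 and Siglech in 1 each.

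The members were then set against P2ry12 as the log2 ratio of reads in the same library, with 0.5 reads added. Under therapy with both tumors against IgG with both tumors, 2 of 9 ratios were lower without overlap, Apoe and Cst3, and 7 overlapped. Over all genes 76.9% were lower in this way, since P2ry12 itself was higher. Apoe averaged 8.34 ± 0.47 under therapy and 9.595 ± 0.65 under IgG (SD, n = 3 each), and the exact permutation test (two-sided) gave p = 0.1, the smallest that 3 against 3 allow, and 0.6 adjusted over 36 ratio tests. Trem2 averaged 2.17 ± 0.25 under therapy and 2.04 ± 0.49 under IgG, and Tyrobp 2.63 ± 0.19 and 2.34 ± 0.26 in the same order, with means that differed by 0.13 and 0.29 and libraries that overlapped. Cst7 averaged 1.42 ± 0.67 under therapy and -0.90 ± 2.38 under IgG, and Clec7a 3.09 ± 0.59 under therapy and 1.79 ± 1.06 under IgG, both with overlapping libraries.

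Between tumor settings under therapy, 4 of 9 ratios to P2ry12 were lower without overlap (Apoe, Cst3, Lpl and Spp1), where 86.2% of all genes were. Spp1 averaged 4.42 ± 0.58 with both tumors and 7.09 ± 1.44 with the intracranial tumor only (SD, n = 3 each), and Cst3 5.96 ± 0.15 with both tumors and 8.12 ± 1.23 with the intracranial tumor only. The intracranial-only ratios rest on 4, 13 and 29 reads of P2ry12. For therapy against IgG with the intracranial tumor only, all 9 ratios overlapped, where 63.4% of all genes did not. For both tumors against the intracranial tumor only under IgG all 9 overlapped too, where 2.20% of all genes did not. No ratio could pass in a design of 3 against 3, and the adjusted exact permutation p was 0.6 or above for all 36.

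**Figure D4:**
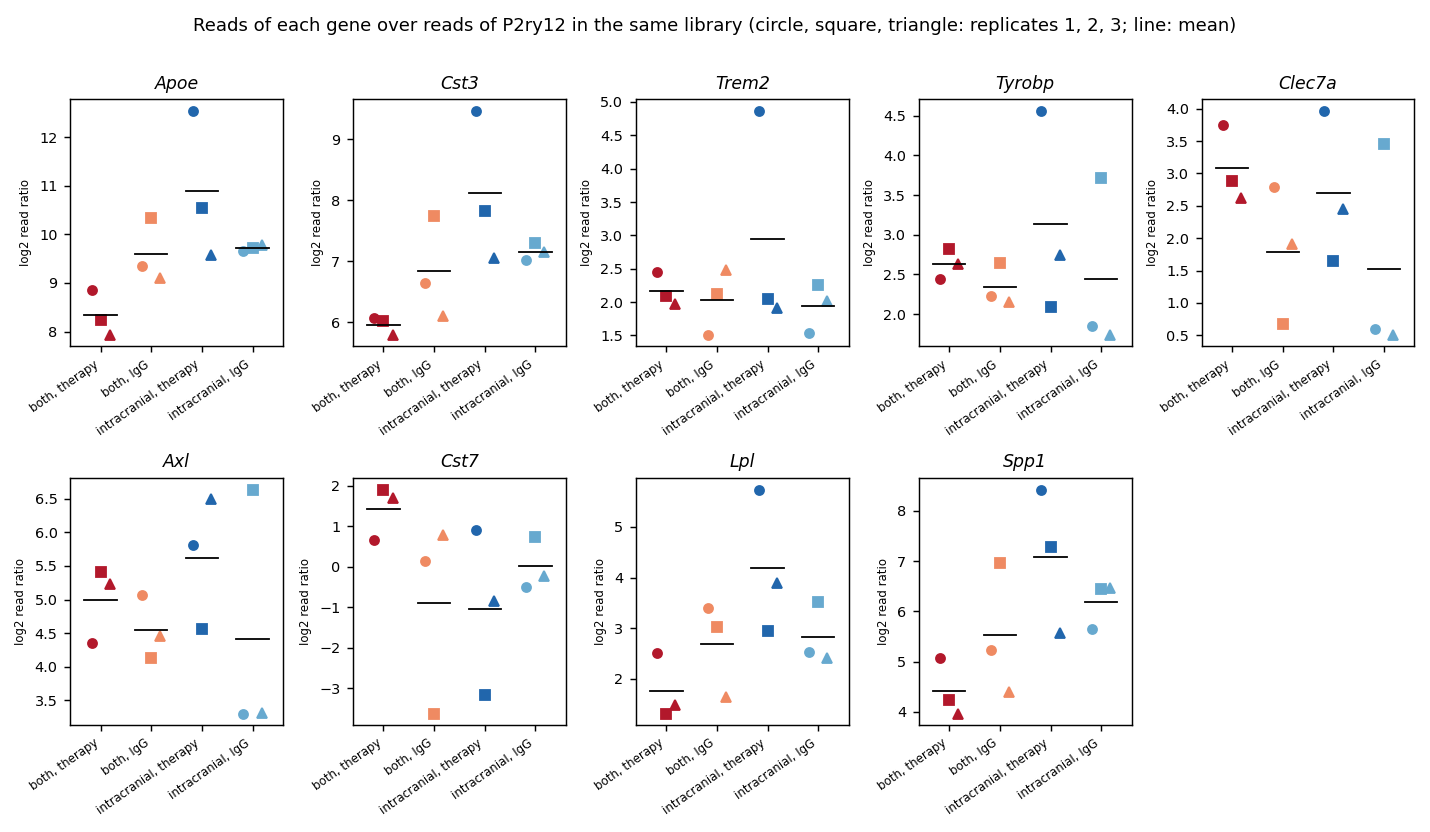
Log2 ratio of the reads of each member to those of P2ry12 in the same library, by group (intracranial stands for the intracranial tumor only), with replicates 1, 2 and 3 as circle, square and triangle and the group mean as a line. Apoe, Cst3, Lpl and Spp1 lie low under therapy with both tumors and high in replicate 1 of therapy with the intracranial tumor only, which had 4 reads of P2ry12, while Trem2 and Tyrobp stay near 2 to 3 in most libraries.

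Likeness was measured as the root mean square difference of log2 CPM, each gene centred on its mean over the 12 libraries. Values were not scaled to the range of a gene. Genes that vary little therefore come out close, and genes that vary widely come out far, whatever their order over the libraries. Among the members the closest pairs were Apoe and Cst3 at 0.26, Apoe and Spp1 at 0.42, Cst3 and Spp1 at 0.43, and Trem2 and Tyrobp at 0.53. The farthest pair was Cst7 and Spp1 at 2.30. Apoe, Spp1 and Cst3 had the smallest ranges of the members (3.26, 3.79 and 4.43-fold in FPKM) and Cst7 the largest. Among 10875 genes, those most like Tyrobp were C1qb at 0.25, a complement gene of macrophages, Cebpa at 0.26 and Otulinl at 0.29. Trem2 was closest to Cd37 at 0.28, and also to Pltp and Cebpa. Clec7a was closest to Ctss at 0.37, and then to Itgax and Cd52, both on the list of the disease-associated state. Axl was close to Uba7 at 0.22 and to Ccrl2 at 0.24. Cst3, in contrast, was closest to Tubb3, a tubulin on the neuron list, at 0.11, and to Endod1 and Psap. Apoe was closest to Mob3b at 0.15, Spp1 to Isoc2b at 0.27, Lpl to Kctd12 at 0.40, Cst7 to Ipcef1 at 0.67 and P2ry12 to Elmo1 at 0.38. All 12 points of each gene share the same libraries and group structure, so closeness describes these tumors only.

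Tubb3 did not move as far as the list it belongs to. Between tumor settings under therapy its log2 fold change was 1.84 ± 0.25 (SE; edgeR adjusted p = 0.00455), while the median of the 12 neuron genes was 6.66. It had 128, 201 and 208 FPKM under therapy with both tumors, 78.2, 48.5 and 95.5 FPKM under IgG with both tumors, 45.5, 48.7 and 49.9 FPKM under therapy with the intracranial tumor only and 67.1, 95.6 and 69.5 FPKM under IgG with the intracranial tumor only. The members thus fell into patterns that differ between libraries of 1 group. Axl and Tyrobp were high in replicate 2 of IgG with the intracranial tumor only, whereas P2ry12 in that library, at 1.13 FPKM, was close to the 0.85 and 1.00 FPKM of its group mates.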

How the data were processed

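RNA-seq was run on whole intracranial tumors, with RNA from the RNAqueous-Micro kit and libraries from the NEBNext Ultra RNA kit, per the labels' protocols. The count table deposited by the authors holds raw reads per Ensembl gene, made with HTSeq 0.6.1 from alignments of TopHat2 2.0.12 with Bowtie2 2.2.3 to GRCm38 or mm10, which the submitters' processing notes name. The authors' FPKM table equals count over gene length and library total for all 16062 genes with reads in every library (relative tolerance 1e-06). The annotation release and strand setting are not given in the sources used here.

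Symbols matched 46488 of 47069 genes. Tests used edgeR 4.0.16 in R 4.3.3 (TMM, filterByExpr, 4 group means over 12 libraries, quasi-likelihood), with Benjamini-Hochberg adjustment over 15925 genes and a threshold of 0.05. The standard error is the log2 fold change over the root of F. Alternatives were DESeq2 1.42.0, limma 3.58.1 on log2(FPKM + 1) and log2(FPKM + 0.1), RLE scaling, no filter, fits of compared groups alone, covariates and left-out libraries. The model was also run on counts simulated from its own fitted dispersions. These hold no library that stands apart as a whole, so the run is no check of calls that depend on such libraries. Mitochondrial reads were 0.490% to 1.47%. Members and lists were chosen with earlier results of these data known, and likeness was searched among genes of at least 5 CPM on average. Genes named from lists are the 4 of smallest p per list and comparison at most. A few genes that this rule or the likeness search would name are not reported here.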

Additional observations from a re-analysis of the deposited data

Results flagged for a closer look

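A difference between the therapy effect with both tumors and that with the intracranial tumor only passed the interaction test in edgeR (adjusted p below 0.05 over all genes) for 6 genes. The log2 difference was 1.11 for Apoe, 3.36 for Tyrobp, 1.79 for Cst3, 5.28 for Cst7, 1.64 for Spp1 and 3.07 for P2ry12, each higher with both tumors. Replicate 2 of IgG with both tumors and replicate 2 of IgG with the intracranial tumor only enter this test on opposite sides. Without replicate 2 of IgG with the intracranial tumor only, none of the 6 passed, with an adjusted p of 0.0526 for Cst3 and 0.0954 for Cst7. Without replicate 2 of IgG with both tumors, Cst3, Cst7, Spp1 and P2ry12 passed. Without both of them Cst3 at 1.44 and Cst7 at 4.08 still passed, and Apoe at 0.77, Tyrobp at 1.85, Spp1 at 1.48 and P2ry12 at 2.54 did not.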

How the results depend on the processing

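No paired analysis was run, since the labels name no pairs between groups. Replicates are numbered here by sample order within each group, so a shared number links no samples across groups. For therapy with both tumors, the count of members past the threshold was 1 in edgeR, with 858 of 15925 genes called in all. It was 0 without the filter, with RLE scaling, in a fit of the compared groups alone and with either covariate. With limma it was 3 on log2(FPKM + 0.1), where 1759 of 15925 genes were called, and 6 on log2(FPKM + 1), where 2630 were. DESeq2 gave 6, with 3103 of 15823 genes called, and no adjusted p for Axl. Leaving out 1 library gave 0 to 3, the 3 with 2064 of 16326 genes called. For the interaction the member count was 5, with 3505 of 15925 genes called. It was 4 without the filter, with 3092 of 28788 called, 7 with DESeq2, with 4715 of 17981 called, and 0 with either covariate. With 1 library left out it was 0 to 6, the 6 with 4235 of 16326 genes called. Between tumor settings under therapy it was 7, with 7231 of 15925 genes called, and 8 with DESeq2, with 7592 of 20138 called. Limma gave 9 on either scale, with 7364 and 7310 of 15925 genes called. A fit of both groups alone also gave 9, with 7274 of 15310 called. The count was 0 with either covariate and 7 to 8 with 1 library left out, with 4710 to 8128 genes called. Without replicate 2 of both IgG groups, chosen after the data were seen like the homeostatic covariate, the member counts of these comparisons were 0, 2 and 9. In the same order 0, 1674 and 8443 of 16283 genes were called. Therapy with the intracranial tumor only and both tumors against the intracranial tumor only under IgG gave 0 members throughout. For therapy with the intracranial tumor only, edgeR still called other genes in some settings. These were 839 of 14560 in a fit of the compared groups alone and 1002 of 16367 without replicate 2 of IgG with both tumors. Without replicate 2 of both IgG groups they were 1067 of 16283. In the comparisons where the edgeR member count fell to 0 from a higher one, no gene at all passed. With the neuron covariate the fold changes of Apoe, Trem2 and Cst7 shrank as well, in the interaction to 0.07, 0.07 and 0.15. The cause was not tested.

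Signs turned in the comparisons without calls. For both tumors against the intracranial tumor only under IgG, Cst3 gave 0.0063 without the filter, 0.0017 with DESeq2 and 0.077 with the neuron covariate; Tyrobp and Axl gave 0.19 and 0.41 with log2(FPKM + 1) and 0.21 and 0.44 with log2(FPKM + 0.1), where Cst7 gave -0.31. With 1 library left out, log2 fold changes there ran from -0.067 to 0.48 for Apoe, -0.69 to 2.04 for Axl, -0.0073 to 2.33 for Clec7a, -0.17 to 0.16 for Cst3, -0.41 to 1.45 for Cst7, -0.39 to 0.84 for Lpl, -0.0046 to 1.01 for P2ry12, -0.32 to 1.203 for Trem2 and -0.50 to 1.13 for Tyrobp. Without replicate 2 of both IgG groups Tyrobp gave 1.49, Cst3 0.34 and Axl 2.51. For therapy with the intracranial tumor only, the neuron covariate gave 0.30 for Apoe, 1.05 for Trem2, 1.55 for Cst7, 0.39 for Axl, 0.16 for Clec7a, 0.35 for Lpl and 0.19 for P2ry12; the fit without replicate 2 of both IgG groups gave 1.55 for Axl, 0.82 for Clec7a and 0.41 for Lpl; and 1 library left out gave -2.45 to 1.55 for Axl, -1.67 to 0.82 for Clec7a and -0.66 to 0.41 for Lpl.

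The count of ratios to P2ry12 without overlap was 2 for therapy with both tumors (2 to 6 with 1 library left out), 4 between tumor settings under therapy (4 to 6), 0 for therapy with the intracranial tumor only (0 to 4, and 2 with the summed homeostatic list as denominator) and 0 under IgG (0 to 3). Over all genes with every library kept, 76.9% and 86.2% were lower without overlap in the first 2 comparisons. In the others 63.4% and 2.20% did not overlap in either direction. No share over all genes was computed with a library left out or with the summed list as denominator. A smaller group separates more readily, so the higher counts with a library left out cannot be read as stronger results. Of 288 recomputed ratio differences, 28 changed sign, 17 of them under IgG. Low reads of P2ry12 and Cst7 limit their fold changes.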

Other observations

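Monocyte-derived macrophages are another source of the phagocyte genes. The summed level of 12 of their genes was 487 to 537 CPM under therapy with both tumors, 235 to 513 CPM under IgG with both tumors, 312 to 478 CPM under therapy with the intracranial tumor only and 229 to 602 CPM under IgG with the intracranial tumor only. Between tumor settings under therapy 2 of 12 were higher in edgeR's test, where 24.4% of all genes were, Arg1, an arginase of suppressive macrophages, at 3.23 ± 1.08 (log2, SE; adjusted p = 0.0318) and Vcan, a matrix proteoglycan made by monocytes, at 0.96 ± 0.30 (adjusted p = 0.0247), and 1 was lower, Itga4, at -0.78 ± 0.23 (adjusted p = 0.0209). Under therapy with both tumors against IgG none of the 12 passed in edgeR.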
